A study of Mus musculus with 32 samples.

Results

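Short interspersed nuclear elements (SINEs) were followed as RNA in fibroblasts under chemical reprogramming while transcription was blocked. The rows are the repeat families whose class is SINE in a table of gene and repeat reads, each family counted once under its plain name. They number 35 of 1146 repeat families: 16 B1 families (superfamily Alu), 5 B2, 4 B4, 4 MIR, 4 ID and 2 Deu. MER131, whose class carries a question mark, lies outside this rule and stood at 0 to 1.03 RPM (reads, scaled to the same total in each library).

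The cells were OG2X129 mouse embryonic fibroblasts in reprogramming to chemically induced pluripotent stem cells (ciPSC). CD, taken for the CD3254 of the study's title, was either added or replaced by its solvent DMSO, and actinomycin D, which stops RNA synthesis, was then given for 0, 4 or 8 h. The 6 groups (DMSO and CD at 0, 4 and 8 h) hold 2 libraries each, 12 of the 32 samples in the study, and the other 20 were not used here. All 6 groups share the ciPSC medium, which contains serum, knockout serum replacement, bFGF, VPA, CHIR99021, 616452, Parnate, Forskolin, AM580, EPZ004777 and vitamin C, so AM580 and the other molecules were present with and without CD. The labels give neither the dose of actinomycin D nor the day of reprogramming, and they do not say whether the 2 libraries of a group came from separate cultures. Every p-value therefore measures the spread between these libraries, which may be technical.

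SINEs are short mobile elements that encode no protein and are copied with the machinery of LINE-1 elements. Rodent B1 descends from the RNA of the signal recognition particle, B2 and ID from transfer RNAs, and B4 joins an ID-like and a B1-like part, while MIR and Deu are ancient families shared across mammals. Intact copies carry an internal RNA polymerase III promoter made of an A box and a B box, but many copies lie within introns and untranslated regions and are read as part of longer RNA polymerase II transcripts. Reads summed over a family do not separate these sources, and in bulk RNA fewer cells of a type and less RNA per cell cannot be told apart.

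An annotated relative of the ID families is shown because its letters hold both boxes of the internal promoter. Bc1, a neuronal RNA related to ID elements, lies on chromosome 7, 144914470 to 144914637, plus strand (GENCODE M21, GRCm38). Capitals in Bc1 mark the A box (bases 14 to 24) and the core of the B box, searched as GGTTC, any 3 bases and CC (bases 57 to 66), which do not overlap. The A box was searched by its name's usual consensus.
Bc1: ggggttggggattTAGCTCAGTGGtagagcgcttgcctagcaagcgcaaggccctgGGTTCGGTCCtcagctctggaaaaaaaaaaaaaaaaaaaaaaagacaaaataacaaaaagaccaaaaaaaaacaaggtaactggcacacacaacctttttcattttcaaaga
Both strands were searched. Of 135207 annotated transcripts with at least 168 bases, 2.27 percent hold the B box core and 0.81 percent the A box in their first 168 bases.

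The libraries hold 15382821 to 24186485 reads, of which 1.22 to 2.30 percent fall in repeat families. In DMSO before actinomycin D, SINE families took 0.742 percent of the reads in library 1 (Wilson 95 percent interval 0.739 to 0.746, counting error only) and 0.697 percent in library 2. With CD at 0 h these shares were 1.06 and 0.929 percent. After 4 h the shares were 0.340 and 0.369 percent in DMSO and 0.410 and 0.381 percent with CD. At 8 h they were 0.386 and 0.496 percent in DMSO and 0.574 and 0.570 percent with CD. The 4 libraries at 0 h were thus the highest of the 12, and the groups at 4 h lay below those at 0 h without overlap in both arms. SINE families made up 36.8 to 45.9 percent of repeat reads at 0 h, 27.2 to 31.3 percent at 4 h and 30.3 to 36.7 percent at 8 h.

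All further levels are RPM after each library was rescaled by the median ratio of its genes, which puts the median gene near 0 change in every comparison (from -0.08 to 0.08 on the log2 scale). Changes are log2 changes of the rescaled value plus 1, with their standard error, so they understate the change of low families. On the values as deposited the median gene itself moved by -0.23 at 4 h and -0.33 at 8 h in DMSO, by -0.28 and -0.34 with CD, and by 0.19 between CD and DMSO at 0 h. On ERCC spike-ins, synthetic RNAs added to each sample, these shifts were -0.24, -0.53, -0.43, -0.64 and 0.38.

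B1 families held 36.8 to 41.4 percent of SINE reads in a library, B2 23.5 to 25.6 percent, B4 22.9 to 24.98 percent, MIR 6.33 to 11.1 percent, ID 3.29 to 7.70 percent and Deu 0.042 to 0.084 percent. These are shares of reads, not levels per copy or per length, since the table gives neither for a family. The highest single families were B3 of B2 (mean 573 over the 12 libraries), ID_B1 and RSINE1 of B4 (449 and 411) and B1_Mus1 of B1 (332). FAM, with 1 to 22 reads per library, did not pass the minimum of 1 RPM in at least 2 libraries and was not tested, which left 34 families among 17720 tested genes and families. AmnSINE1 and AmnSINE2 of Deu passed with few reads, and AmnSINE2 had 0 reads in DMSO 4 h library 1, which allows up to 3.

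**Figure D1:**
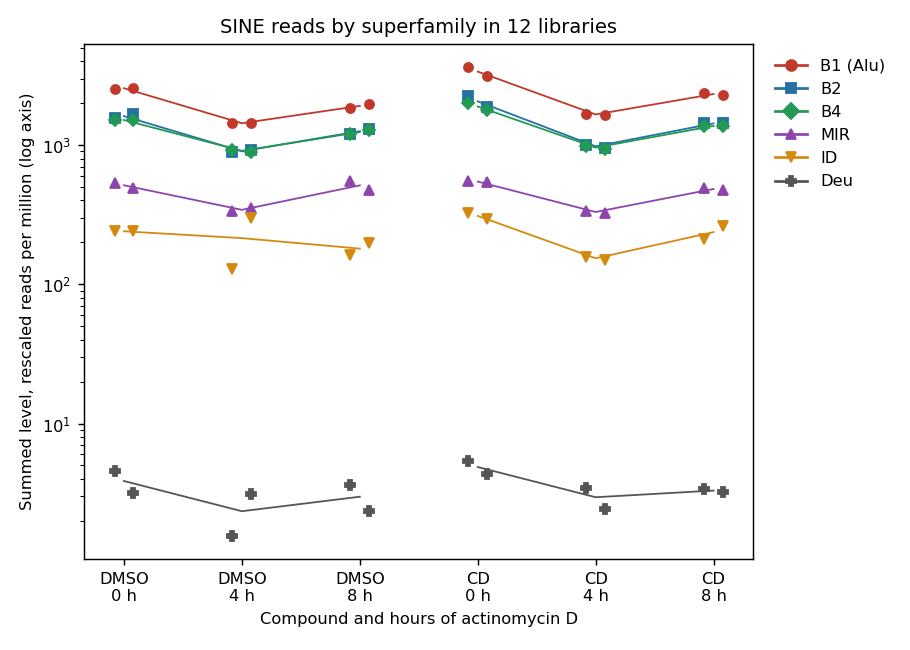
Summed level of each SINE superfamily (log axis, rescaled RPM) in the 12 libraries, by compound and hours of actinomycin D; points are libraries and lines join group means. B1, B2, B4 and MIR are lower at 4 h than at 0 h in both arms and lie between these at 8 h, except MIR in DMSO, and 1 ID point at 4 h in DMSO stands apart at 300.2 against 129.

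After 4 h of actinomycin D, SINE RNA fell in both arms. In DMSO 30 of 34 families fell and none rose, with a median log2 change of -0.79, where 14.1 percent of all tested features and 21.0 percent of tested repeat families fell and the median over all features was -0.03. With CD 31 of 34 fell and none rose, with a median of -0.98 against -0.04 over all features, and the background was 27.7 percent of features and 39.0 percent of repeat families. All 30 families that fell in DMSO were among the 31 with CD. The summed SINE level went from 6375 and 6512 to 3706 and 3900 in DMSO, or 59.0 percent of the 0 h mean. With CD it went from 8722 and 7637 to 4148 and 4017, or 49.9 percent.

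B1 families all fell: 15 of 15 tested in each arm, by 0.66 to 0.98 on the log2 scale in DMSO and by 0.61 to 1.34 with CD. B1_Mus1, the most abundant, stood at 374 and 388 in DMSO at 0 h and 220.1 and 222 at 4 h, and at 532 and 463 with CD at 0 h and 256 and 249 at 4 h. Each pair at 4 h lies below its pair at 0 h (change -0.79 ± 0.11 in DMSO, adjusted p = 0.00729, and -0.97 ± 0.11 with CD, adjusted p = 0.0014). The 4 h pair with CD lies above that in DMSO, a difference that did not pass. B1_Mus2 went from 302 and 313 to 178 and 178 in DMSO and from 414 and 382 to 209 and 204 with CD. PB1D11, one of the proto-B1 families, had the largest fall of the 34 families in both arms: it went from 78.6 and 73.3 to 36.2 and 39.9 in DMSO (-0.98 ± 0.13, adjusted p = 0.00659) and from 119.9 and 98.9 to 44.7 and 40.0 with CD (-1.34 ± 0.13, adjusted p = 0.0014). Its 4 h libraries in both arms lie between 36 and 45 although the 0 h libraries differ by arm. B1_Mur1, B1_Mur4 and B1F2, which with PB1D11 had some of the smallest p in DMSO, changed there by -0.97 ± 0.13, -0.89 ± 0.12 and -0.93 ± 0.12. With CD, B1F changed by -1.13 ± 0.12 and B1_Mur4 by -1.12 ± 0.12, beside -0.85 ± 0.12 for B1F in DMSO. PB1D10 went from 288 and 290.1 to 156 and 153 in DMSO and from 412 and 355 to 178 and 183 with CD, so that both 4 h pairs again lay below both 0 h pairs. At the other end B1_Mm changed by -0.69 ± 0.12 in DMSO and -0.61 ± 0.12 with CD, the 1 B1 family with the smaller value with CD, though the arms did not differ beyond the error (0.09 ± 0.17, adjusted p = 0.897).

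B2 families, derived from transfer RNA, fell in 5 of 5 cases in each arm. B3 stood at 656 and 688 at 0 h and 360.1 and 371 at 4 h in DMSO, a change of -0.88 ± 0.12 (adjusted p = 0.00729). With CD it stood at 950.2 and 806 at 0 h and 416 and 409 at 4 h, a change of -1.08 ± 0.12 (adjusted p = 0.0014). No library at 4 h reached the lowest library at 0 h. B2_Mm2 went from 356 and 385 to 193 and 199 in DMSO (-0.92 ± 0.14) and from 538 and 425 to 224 and 203 with CD (-1.16 ± 0.14), and B3A from 337 and 346 to 192 and 201 and from 470.1 and 402 to 213 and 198. B2_Mm1a and B2_Mm1t, the least abundant B2 families, had the smallest B2 changes in both arms (-0.62 and -0.71 in DMSO, -0.82 and -0.85 with CD).

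B4 families, which join ID-like and B1-like parts, fell in 4 of 4 cases in each arm within a narrow range, by 0.67 to 0.78 on the log2 scale in DMSO and by 0.93 to 1.00 with CD. ID_B1 stood at 525 and 517 at 0 h and 311 and 299.6 at 4 h in DMSO, and at 691 and 627 and then 337 and 323 with CD. RSINE1 stood at 453 and 479.8 and then 302 and 285 in DMSO, and at 621 and 549 and then 309.98 and 289.8 with CD. For both families the 2 libraries of a 4 h group agreed more closely with each other than with any 0 h library.

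ID families, related to Bc1, fell in 3 of 4 cases in each arm. ID4 went from 95.4 and 97.2 to 51.6 and 58.7 in DMSO (-0.80 ± 0.12, adjusted p = 0.00729) and from 130.2 and 112 to 62.0 and 63.0 with CD (-0.94 ± 0.12, adjusted p = 0.0014). ID4_, listed as a separate family, stood apart in 1 library: 102 and 96.3 at 0 h against 52.6 and 216 at 4 h in DMSO. Its change was 0.11 ± 0.50 (adjusted p = 0.89), and -0.90 without DMSO 4 h library 2. With CD it stood at 135 and 126 at 0 h and 67.5 and 58.3 at 4 h (-1.05 ± 0.50, adjusted p = 0.104), and its 8 h libraries stood at 74.9 and 138. The pair of libraries differed for this family and not for ID4, and the cause was not tested.

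MIR families, old enough to be shared by all mammals, fell in 3 of 4 cases in DMSO and in 4 of 4 with CD, with medians of -0.61 and -0.75, nearer to 0 than those of B1, B2, B4 and ID. MIR stood at 124 and 122 at 0 h and 66.9 and 66.8 at 4 h in DMSO (-0.87 ± 0.12, adjusted p = 0.00659), and at 153 and 135 and then 82.8 and 71.2 with CD. MIRb, the most abundant of the 4, stood at 212 and 168 and then 137 and 152 in DMSO (-0.39 ± 0.17, adjusted p = 0.114) and at 191 and 197 and then 123 and 119.8 with CD (-0.67 ± 0.17, adjusted p = 0.008). The 0 h libraries of MIRb in DMSO were further apart than those of MIR. The 2 Deu families did not pass the test in either arm, with changes of -0.46 ± 0.29 and -0.41 ± 0.29 in DMSO and -0.54 ± 0.29 and -0.37 ± 0.29 with CD for AmnSINE1 and AmnSINE2.

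**Figure D2:**
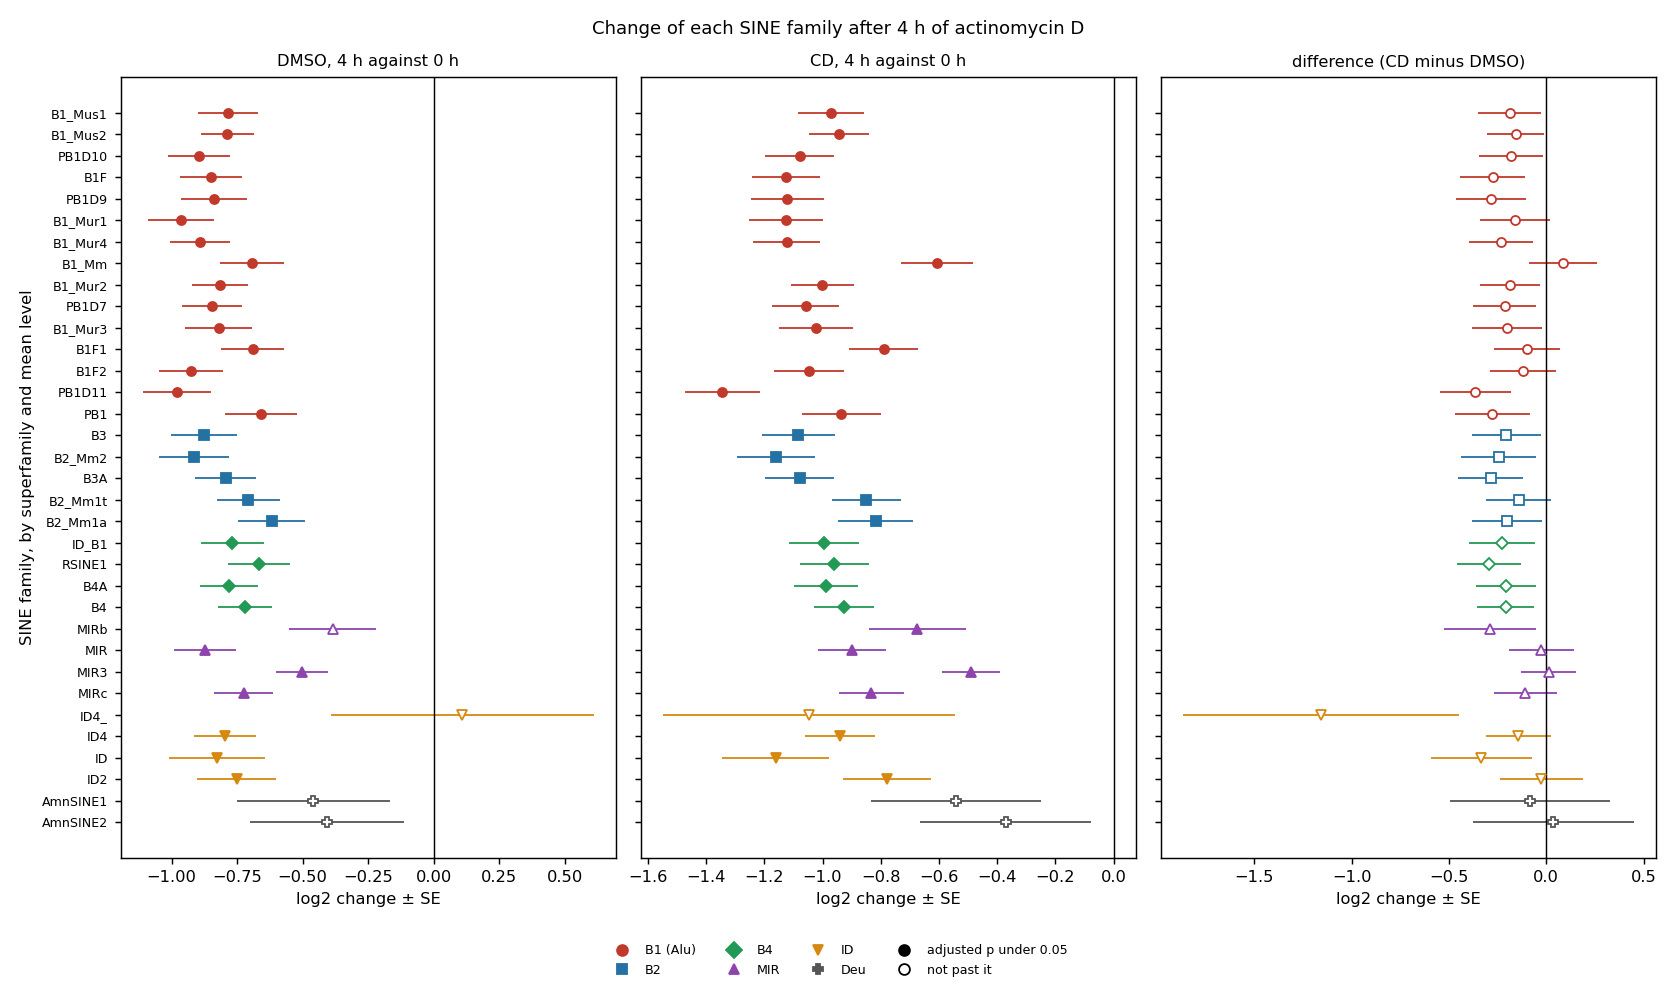
Log2 change ± SE of each of the 34 tested SINE families at 4 h against 0 h in DMSO (left) and CD (middle), and the difference of these changes (right); filled points passed an adjusted p under 0.05, and the x axes differ between panels. All 30 filled points in DMSO and all 31 with CD lie below 0, and no point in the right panel is filled.

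The calls in DMSO at 4 h rested on both libraries of that group: without DMSO 4 h library 1 no family passed (median -0.78, smallest adjusted p = 0.0884), and likewise without library 2 (median -0.80, smallest adjusted p = 0.062), with 31 families at an unadjusted p under 0.05 in each case. On ERCC scaling 0 families passed in DMSO (median -1.06, smallest adjusted p = 0.0808). There 1 of 17720 features was called lower, and 31 SINE families had an unadjusted p under 0.05. With CD 31 families passed on ERCC scaling (median -1.47), where 5454 features were called lower. As deposited the SINE medians were -1.05 in DMSO and -1.30 with CD.

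Beside the other repeat classes, the SINE medians at 4 h were the lowest. In DMSO the median was -0.38 over 84 DNA transposon families, -0.37 over 122 LINE families and -0.29 over 401 LTR families, and with CD it was -0.49, -0.53 and -0.38. The share of tested families that fell was 23.8 percent of DNA, 24.6 percent of LINE and 13.5 percent of LTR families in DMSO, against 88.2 percent of SINE families, and with CD 39.3, 45.9 and 32.2 percent against 91.2 percent. These are descriptions, without a test of the classes against each other. The classes also differ in level. In DMSO at 0 h summed reads were 6444 over 35 SINE families, 2408 over 158 LINE, 7272 over 680 LTR and 510 over 197 DNA families. The scale used understates the change of low families, so medians and shares are not set side by side at like levels. The part of level in these gaps was not tested. Summed SINE reads at 4 h were 59.0 and 49.9 percent of those at 0 h in DMSO and with CD. Summed LTR reads at 4 h were 102 percent of those at 0 h in DMSO and 90.6 percent with CD, LINE reads 83.4 and 81.0 percent, and DNA reads 68.6 and 64.4 percent.

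**Figure D3:**
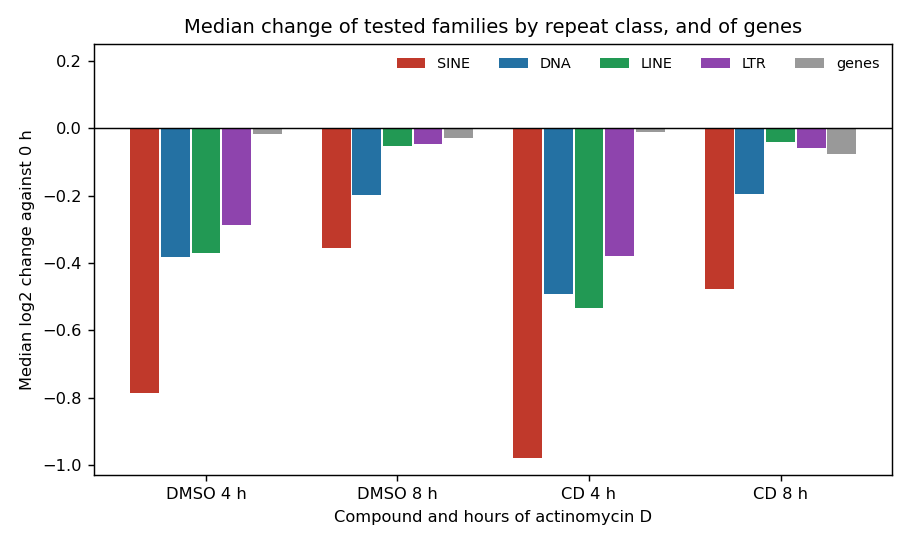
Median log2 change against 0 h over the tested families of each repeat class and over 17064 genes, by compound and hours of actinomycin D. The SINE bar is the lowest in each of the 4 comparisons, from -0.36 to -0.98.

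At 8 h SINE levels were closer to those at 0 h. In DMSO 16 of 34 families were lower at 8 h than at 0 h and none was higher (median -0.36), against a background of 13.6 percent of features and 4.73 percent of repeat families. With CD 26 of 34 were lower and none was higher (median -0.48), against 30.6 percent of features and 79 of 656 repeat families. All 16 families called in DMSO were among the 26 with CD. The summed SINE level at 8 h was 4964 and 5245 in DMSO, 79.2 percent of the 0 h mean, and 5863 and 5837 with CD, 71.5 percent. The 4 h and 8 h comparisons of an arm share its 0 h libraries, so their values are set side by side only.

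B1 families gave 11 of the 16 calls in DMSO and 15 of the 26 with CD. B1_Mur1 stood at 181 and 186 at 0 h and 119.9 and 124 at 8 h in DMSO, a change of -0.58 ± 0.13 (adjusted p = 0.0118). PB1D9 went from 179 and 186 to 117 and 129 there (-0.57 ± 0.13, adjusted p = 0.0128), and B1_Mur4 from 175 and 169.8 to 117 and 126 (-0.51 ± 0.12, adjusted p = 0.0139). In each of these families both 8 h libraries lay below both 0 h libraries and above both 4 h libraries of the same arm. With CD, PB1D11 stood at 63.1 and 62.7 at 8 h (-0.78 ± 0.13, adjusted p = 0.00271), PB1D7 at 112 and 109 after 187 and 159.9 at 0 h (-0.64 ± 0.12, adjusted p = 0.00331) and PB1D10 at 264 and 243 (-0.59 ± 0.12, adjusted p = 0.00398). All 3 are proto-B1 families, and their 8 h pairs lie below their 0 h pairs.

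Of the other superfamilies, B2 gave 2 of 5 calls in DMSO and 4 of 5 with CD, B4 1 of 4 and 4 of 4, ID 1 of 4 and 2 of 4, and Deu 0 of 2 in each arm. B3 was called in both arms, at 491 and 527 in DMSO (-0.40 ± 0.12, adjusted p = 0.0383) and 602 and 596 with CD (-0.55 ± 0.12, adjusted p = 0.0059). MIR was the 1 family of its superfamily called in each arm, with -0.35 ± 0.12 in DMSO and -0.36 ± 0.12 with CD. MIRb stood at 253 and 178 and MIR3 at 113 and 116 at 8 h in DMSO, beside 212 and 168 and 106 and 103 at 0 h; neither passed (0.17 ± 0.17 and 0.13 ± 0.10), and both values are below 0 as deposited (-0.21 and -0.25) and on ERCC scaling (-0.48 and -0.51). The summed MIR level at 8 h was 99.9 percent of that at 0 h in DMSO and 88.5 percent with CD.

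The DMSO count at 8 h fell to 0 without DMSO 0 h library 1 or DMSO 8 h library 1, to 6 to 8 without DMSO 0 h library 2 or any 1 library of DMSO 4 h, CD 4 h or CD 8 h, and was 29 on the values as deposited and 26 on ERCC scaling. With CD it fell to 15 without CD 0 h library 1 and to 17 without CD 8 h library 2. The size of the 8 h change moved with the scale: the medians were -0.73 in DMSO and -0.78 with CD as deposited, and -0.998 and -1.12 on ERCC scaling. The background in DMSO moved too. Of 17720 features 4765 were called lower as deposited and 3049 on ERCC scaling, against 2404 on the main scale.

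From 4 to 8 h SINE families rose relative to the median gene, a comparison added after the values were seen. In DMSO 10 of 34 families rose and none fell (median 0.44, against 0.08 over all features), with a background of 3.08 percent of features and 5.95 percent of repeat families. With CD 24 of 34 rose and none fell (median 0.52, against 0.04), with a background of 3.0 percent of features and 10.4 percent of repeat families. Of the 10 in DMSO, 9 were among the 24 with CD. The rise was not particular to SINE families. In DMSO the median was 0.387 over LINE, 0.275 over LTR and 0.255 over DNA families, and with CD it was 0.474, 0.331 and 0.335. Summed LINE reads at 8 h were 124.2 percent of those at 4 h in DMSO and 147.8 percent with CD, beside 134.2 and 143.3 percent for SINE reads.

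MIRc, B4 and MIR3 led in DMSO. MIR3 stood at 73.6 and 73.3 at 4 h and 113 and 116 at 8 h (0.63 ± 0.10, adjusted p = 0.0115), B4 at 121 and 119 and then 171 and 179 (0.54 ± 0.10, adjusted p = 0.0231), and MIRc at 56.0 and 59.2 and then 88.8 and 84.9 (0.58 ± 0.11, adjusted p = 0.0235). With CD the 3 smallest p belonged to MIRc, at 53.1 and 62.4 and then 92.6 and 91.2 (0.67 ± 0.11, adjusted p = 0.0145), B4, at 124 and 123 and then 172 and 189 (0.55 ± 0.10, adjusted p = 0.0189), and B1_Mur2, at 95.5 and 96.0 and then 140.4 and 139.5 (0.54 ± 0.11, adjusted p = 0.0214). In each case the 8 h pair lies above the 4 h pair. All 5 B2 and all 4 B4 families rose with CD, as did 11 of 15 B1, 2 of 4 ID and 2 of 4 MIR families.

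**Figure D4:**
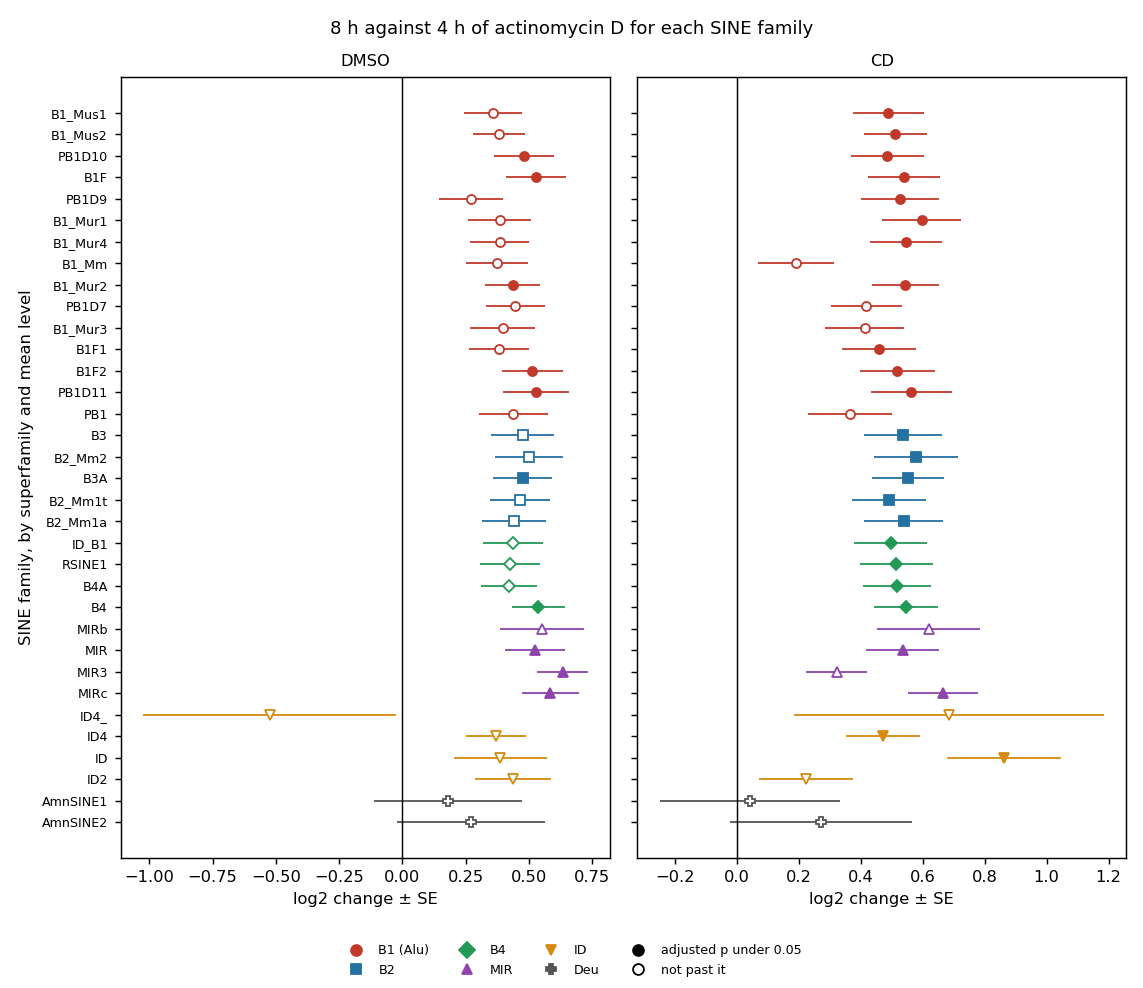
Log2 change ± SE of each tested SINE family at 8 h against 4 h in DMSO and CD; filled points passed an adjusted p under 0.05, and the x axes differ. There are 10 filled points in DMSO and 24 with CD, all above 0, and ID4_ in DMSO, at -0.53 ± 0.50, is the 1 point below 0.

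The scale bears on this rise. On ERCC scaling the median over SINE families was 0.07 in DMSO and 0.36 with CD while the median gene moved by -0.22 and -0.11. There 30 and 33 of 34 families stayed above 0, and no family passed. Over all 17720 features 1 was called higher on that scaling in DMSO and 10 with CD. As deposited the medians were 0.32 and 0.53, with 0 calls in DMSO and 5 with CD. The DMSO count was 0 without either DMSO 4 h library or DMSO 8 h library 1, and 1 or 2 without DMSO 8 h library 2 or any CD library at 4 or 8 h, and 15 to 19 without a 0 h library; the CD count was 0 without any 1 of the 4 CD libraries at 4 and 8 h and 2 without either DMSO 4 h library.

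Before actinomycin D, SINE RNA was higher with CD. At 0 h 8 of 34 families rose and none fell, with a median of 0.34 against 0.08 over all features, and the background was 7.11 percent of features and 1.83 percent of repeat families. All 8 belong to B1. Both CD libraries lay above both DMSO libraries for 30 of 34 families, against 32.3 percent of all features. The summed SINE level with CD was 127 percent of that in DMSO, and summed LINE, LTR and DNA reads were 92.4, 98.2 and 117 percent.

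PB1D11 stood at 119.9 and 98.9 with CD and 78.6 and 73.3 in DMSO, a difference of 0.51 ± 0.13 (adjusted p = 0.0294). PB1D9 stood at 281 and 227 against 179 and 186 (0.47 ± 0.13, adjusted p = 0.0355), and PB1D7 at 187 and 159.9 against 132 and 126 (0.42 ± 0.12, adjusted p = 0.0374). In all 3, library 1 of CD was the highest of the 4. The other 5 were B1_Mur4, B1_Mus2, B1_Mur1, PB1D10 and B1_Mus1, with differences of 0.37 to 0.44. Outside B1, B3 of B2 (0.38 ± 0.12, adjusted p = 0.0599) and ID_B1 of B4 (0.34 ± 0.12, adjusted p = 0.0716) did not pass, and 3 of 5 B2, 4 of 4 B4 and 2 of 4 ID families had an unadjusted p under 0.05. MIR families lay closest to 0, with differences of 0.01 to 0.22 and no unadjusted p under 0.05.

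This result depended on single libraries. It was 0 families without CD 0 h library 1, without DMSO 0 h library 2 or without any 1 library of DMSO 4 h, CD 4 h or CD 8 h, 3 without DMSO 0 h library 1, and 20 without CD 0 h library 2; edgeR called 1 family and DESeq2 9. Over all features, edgeR called 972 of 19613 higher and DESeq2 2071 of 16056. On ERCC scaling the SINE median was 0.68, all 34 values were above 0 and 0 families passed (smallest adjusted p = 0.104), where 96 of 17720 features were called higher. CD 0 h library 1 was the deepest library (24186485 reads), had the lowest ERCC share (0.127 percent against 0.185 percent in library 2) and stood apart in Gata4, an endoderm transcription factor, at 894 against 367 in library 2.

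Markers of cell types moved with CD at 0 h, where 7.11 percent of all features rose and 8.3 percent fell. Of 12 fibroblast markers 8 fell and none rose, with a summed level of 3916 to 4287 with CD and 5503 to 5523 in DMSO. Of 6 markers of cells like extraembryonic endoderm (XEN) 4 rose, at 1611 to 2511 against 985 to 1067, and of 6 epithelial markers 4 rose, at 1513 to 1552 against 1095 to 1116. Of 6 macrophage markers 2 fell, at 117 to 179 against 277 to 426, while 5 pluripotency markers summed to at most 5.0 in any library, with Pou5f1 at 0 to 0.361. Mitochondrial genes took 4.81 and 5.06 percent of reads with CD and 6.78 and 8.85 percent in DMSO. Of the 2 endothelial, 3 muscle, 4 neural and 1 adipocyte markers that passed the filter, 1 endothelial and 1 neural marker fell and none rose. These summed levels also moved with time: from 0 to 4 and 8 h, fibroblast markers stood at 5432 to 5584 and 7667 to 8635 in DMSO and at 3758 to 3786 and 5400 to 5414 with CD, and macrophage markers at 451 to 487 and 496 to 771 in DMSO and at 302 to 325 and 510 to 548 with CD. Of 6 XEN-like markers 5 fell at 4 h and at 8 h in both arms. Over all features 14.1 and 13.6 percent fell at these times in DMSO and 27.7 and 30.6 percent with CD. The other marker, Srgn, rose with CD at both times (1.42 ± 0.35 and 1.305 ± 0.35) and was not called in DMSO. With Srgn included, XEN-like markers had summed levels of 924 at 4 h and 597 to 844 at 8 h in DMSO and of 1250 to 1359 and 1231 to 1307 with CD. The median change over the 6 was -2.21 and -2.32 in DMSO and -2.93 and -2.43 with CD. These sums thus understate the fall of the 5. Epithelial markers stood at 1683 to 1798 and 919 to 1139 in DMSO and at 1945 to 2034 and 1508 to 1516 with CD. In DMSO 4 of 6 were higher at 4 h and 4 of 6 lower at 8 h than at 0 h, against 5.88 and 13.6 percent of all features. With CD 3 of 6 were higher at 4 h, against 21.7 percent of features. At 8 h with CD 2 were higher and 2 lower, against 22.2 and 30.6 percent. The part of these differences in the SINE results was not tested.

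At 4 h, in a comparison added later, no SINE family passed between CD and DMSO in limma, edgeR or DESeq2 (2, 2 and 1 with an unadjusted p under 0.05), with a median of 0.16 and a background of 1.15 percent of features called higher. Both CD libraries lay above both DMSO libraries for 24 of 34 families, against 39.5 percent of features. At 8 h 7.09 percent of features and 2.59 percent of repeat families were called higher with CD. On the values as deposited 1645 of 17720 features were called higher, against 1256 on the main scale. Among SINE families (median 0.20) 3 were higher, or 8.82 percent, near the share over all features, and all 3 were of B1. They were B1_Mur1 at 188 and 158 against 119.9 and 124 (0.49 ± 0.13, adjusted p = 0.0253), PB1D9 at 171 and 163 against 117 and 129 (0.44 ± 0.13, adjusted p = 0.039) and B1_Mus2 at 292 and 297 against 231 and 233 (0.34 ± 0.10, adjusted p = 0.0465). Both CD libraries lay above both DMSO libraries in these 3 and in 25 of the 34 in all, against 29.5 percent of features. The 8 h count was 0 without DMSO 8 h library 1 or 2 or CD 8 h library 1, 1 without CD 8 h library 2 or any 1 library of DMSO 4 h or CD 4 h, 5 without either CD 0 h library, and 7 on the values as deposited.

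**Figure D5:**
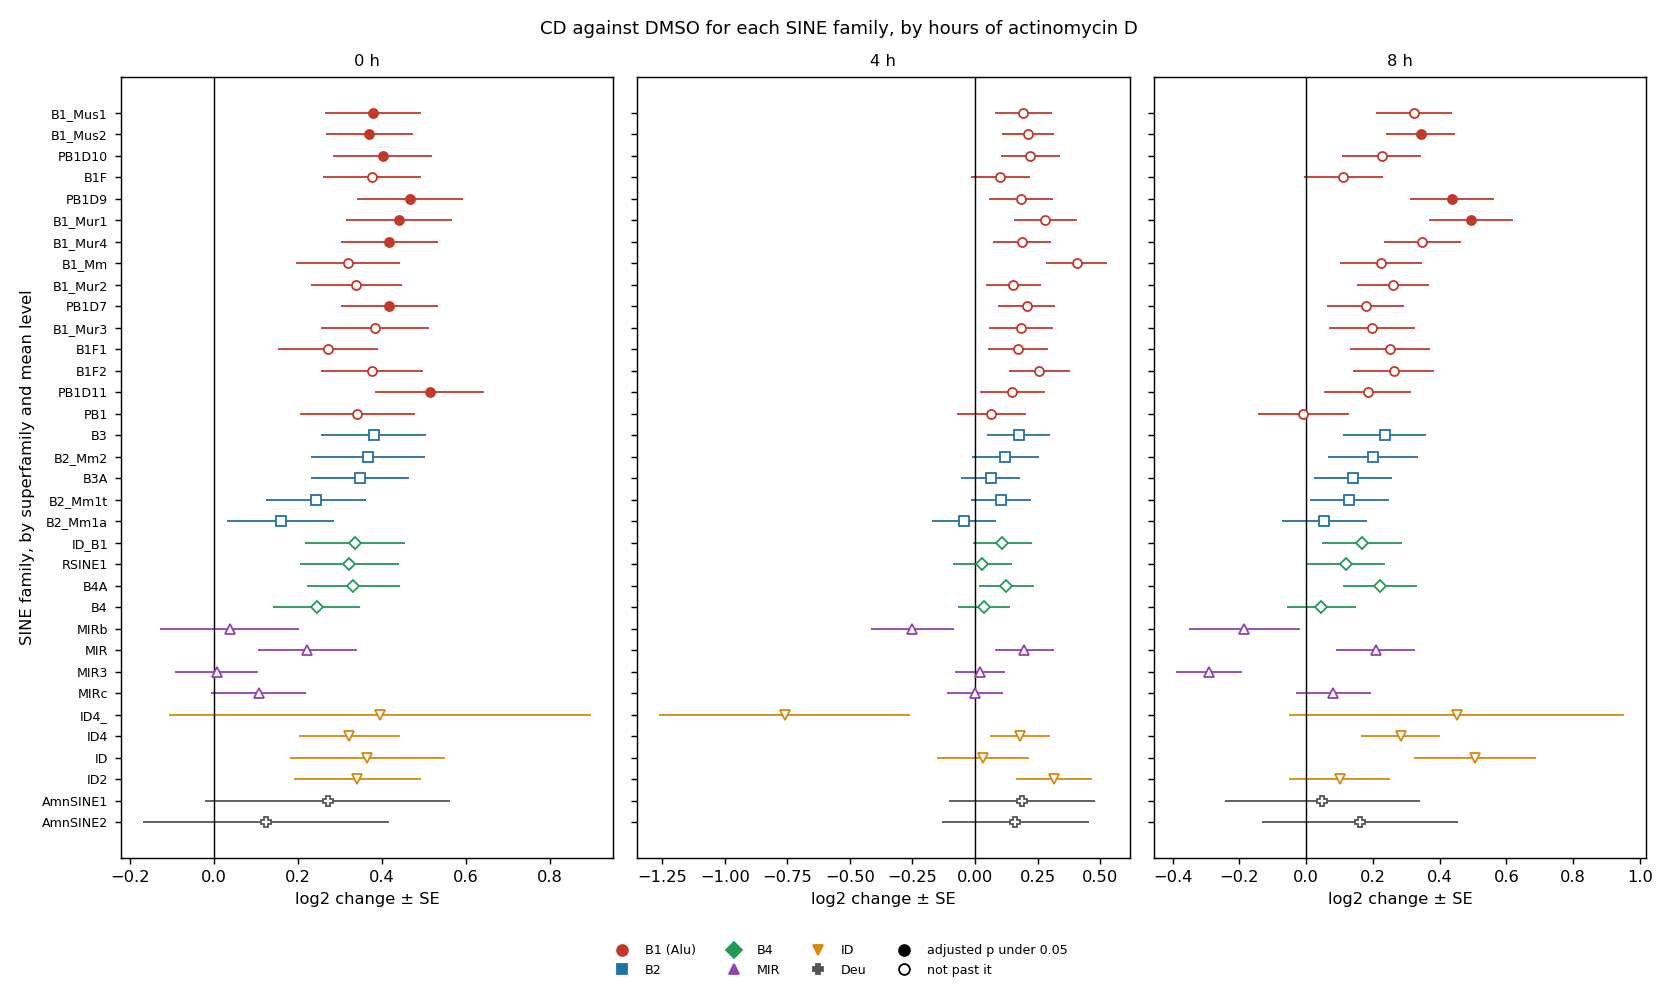
Log2 difference ± SE between CD and DMSO for each tested SINE family at 0, 4 and 8 h of actinomycin D; filled points passed an adjusted p under 0.05, and the x axes differ between panels. There are 8 filled points at 0 h, 0 at 4 h and 3 at 8 h, all of them B1 families.

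Whether the fall differed between the arms was tested directly. At 4 h the change with CD minus the change in DMSO had a median of -0.20 over SINE families (-0.02 over all features), 31 of 34 values were below 0, and no family passed in limma, edgeR or DESeq2; in limma 0 had an unadjusted p under 0.05. The background of 1 call in 17720 features is 0.00564 percent. B1_Mus1 differed by -0.19 ± 0.16 (adjusted p = 0.795), B3 by -0.21 ± 0.18 (adjusted p = 0.795), RSINE1 by -0.29 ± 0.17 and PB1D11 by -0.37 ± 0.18 (adjusted p = 0.794 for both). At 8 h the median was -0.12 (-0.07 over all features), again with 0 calls in the 3 tools and 0 unadjusted p under 0.05 in limma, where 0.0113 percent of features passed. A difference between the arms was thus not shown for any SINE family at 2 libraries per group.

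Genes for RNA polymerase III, SINE RNA binding, chromatin repression of repeats and the RNA exosome were counted in the same test, from lists of known factors. The polymerase III list holds factors of all its promoter types and is not limited to those that act on SINE copies. Over all features 7.11 percent rose and 8.3 percent fell with CD at 0 h. At 4 h 5.88 percent rose and 14.1 percent fell in DMSO and 21.7 and 27.7 percent with CD, and at 8 h 14.5 and 13.6 percent in DMSO and 22.2 and 30.6 percent with CD. Of 30 genes for RNA polymerase III and its factors, 4 rose with CD at 0 h and none fell (median 0.45): Polr3e (0.86 ± 0.21, adjusted p = 0.0277) and Polr3c (0.53 ± 0.15, adjusted p = 0.0427), which encode subunits, Gtf3a, and Maf1 (0.78 ± 0.23, adjusted p = 0.0455), which encodes a repressor of the enzyme. After 4 h of actinomycin D 8 fell and 2 rose in DMSO, and 15 fell and 5 rose with CD. Tbp, the TATA-binding protein shared by all 3 nuclear polymerases, fell in both arms (-1.43 ± 0.31 and -1.83 ± 0.31), and so did Brf2 and Bdp1, parts of the initiation factor TFIIIB, while the subunit gene Polr3k rose with CD (0.81 ± 0.11, adjusted p = 0.00141). At 8 h 8 fell and 2 rose in DMSO and 17 fell and 4 rose with CD. The share that fell, 26.7 percent in DMSO at both times and 50.0 and 56.7 percent with CD, was above the share over all features, and the share that rose with CD (16.7 and 13.3 percent) below it.

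Of 22 genes for proteins that bind or edit SINE RNA, 4 rose and 2 fell with CD at 0 h. Srp14, which with Srp9 binds the Alu domain of signal recognition particle RNA, fell (-0.87 ± 0.18, adjusted p = 0.0161), Stau2, which encodes a double-stranded RNA-binding protein, fell (-0.72 ± 0.15, adjusted p = 0.0159), and Trim25, a ubiquitin ligase that binds RNA, rose (0.95 ± 0.20, adjusted p = 0.0161). After 4 h 1 rose and 2 fell in DMSO, the latter Adar, which edits adenosines in paired repeats (-0.63 ± 0.17, adjusted p = 0.0314), and Dicer1. With CD 9 rose and 6 fell, among the former Srp9 (0.97 ± 0.15, adjusted p = 0.00154) and Srp14 (1.05 ± 0.18, adjusted p = 0.00217). At 8 h 3 rose and 4 fell in DMSO and 6 rose and 11 fell with CD. The 27.3 percent that fell with CD at 4 h is the share over all features to within 1 gene, while the 40.9 percent that rose is above it.

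Of 20 genes of chromatin repression of repeats, 6 rose with CD at 0 h and none fell, among them Uhrf1 (0.90 ± 0.20, adjusted p = 0.02), which guides maintenance of DNA methylation, and Suv39h2 (0.93 ± 0.22, adjusted p = 0.0252), a histone H3 lysine methyltransferase. At 4 h 6 fell and 0 rose in DMSO and 10 fell and 1 rose with CD; Adnp, whose protein binds SINE DNA together with Chd4, fell in both (-1.55 ± 0.29 and -1.96 ± 0.29), and so did Ctcf, whose binding sites lie in many B2 copies (-1.63 ± 0.30 and -1.97 ± 0.30). At 8 h 10 fell and 1 rose in DMSO, and 17 fell and 0 rose with CD. The shares that fell were thus 30.0 and 50.0 percent in DMSO and 50.0 and 85.0 percent with CD, above those over all features. Of 23 genes of the RNA exosome and its cofactors, which degrade nuclear RNA, 3 rose and 1 fell with CD at 0 h, 7 fell and 0 rose at 4 h in DMSO, and 11 fell and 2 rose with CD. Zcchc8, of the nuclear exosome targeting complex, fell at 4 h in both arms (-1.08 ± 0.17 and -1.29 ± 0.17). At 8 h 7 fell and 1 rose in DMSO and 18 fell and 1 rose with CD. These shares, 30.4 percent at both times in DMSO and 47.8 and 78.3 percent with CD, also lay above the background.

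Apart from Rn7sk, the short RNA genes of polymerase III reported here were at or near 0 in these libraries. Whether the libraries keep RNAs this short was not tested, so the values do not give their level in the cells. Bc1, printed above, stood at 0 in 9 of 12 libraries and at most 0.206 in the others, Rpph1 at 0 to 1.62 and Vaultrc5 at 0 to 0.069, while Rmrp, Rny1 and Rny3 had 0 reads in every library, which allows up to 3 in each. The summed level of the ID families, at 129 to 326 RPM, was above that of Bc1 in every library. Rn7sk was well above the other short RNA genes named here at 4 and 8 h. It stood at 4.64 and 12.7 in DMSO and 0.512 and 4.56 with CD at 0 h, at 23.0 and 32.5 with CD at 4 h and 40.4 and 40.6 at 8 h, and at 36.5 and 23.5 and 51.6 and 13.1 in DMSO at those times. Rn7sk rose with CD at 4 h (3.29 ± 0.68, adjusted p = 0.0039) and at 8 h (3.84 ± 0.68, adjusted p = 0.00319) while SINE families fell. In DMSO its change passed neither at 4 h (1.79 ± 0.68, adjusted p = 0.0828) nor at 8 h (1.63 ± 0.68, adjusted p = 0.0923). The change with CD minus that in DMSO did not pass at 4 h (adjusted p = 0.794) or at 8 h (adjusted p = 0.398). A difference between the arms was thus not shown for Rn7sk. The changes with CD are measured from a low 0 h pair, 0.512 and 4.56.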

How the data were processed

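Total RNA was sequenced in 12 libraries, per the labels. HISAT2 2.1.0, StringTie 2.0 and fastp 0.20.1 are listed with mm10 in the submitters' processing notes. The sources used here do not give how, or on which strand, reads of repeats were assigned to families. The deposited signal has no unit in its header. It was checked to be reads scaled to 1 total per library (RPM): at least 99.991 percent of a library's values are whole multiples of its smallest step (tolerance 0.001), and columns sum to 998907 to 1001093 with each repeat family, listed by the authors under 2 names with identical values, counted once. No column was left out.

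Values were rescaled by the median ratio over 13546 genes and tested with limma 3.58.1 (R 4.3.3; eBayes with trend, 2-sided) on log2(value + 1), 12 libraries in 6 groups with one estimate of the spread, for features with 1 or more in at least 2 libraries, and p-values were Benjamini-Hochberg adjusted over all 17720, with a threshold of 0.05. Whole reads recovered from the steps were also tested with edgeR 4.0.16 (TMM) and DESeq2 1.42.0, and the tests were tried on simulated data. Of 19613 features, edgeR called 972 higher and 1812 lower with CD at 0 h, and 1277 higher and 2470 lower at 4 h in DMSO and 5042 and 4422 with CD. Other alternatives were the values as deposited, ERCC scaling, a pseudocount of 0.5, no filter, a filter at 5, adjustment over repeat families alone, the replicate number as a block and each library left out in turn. Comparisons of 8 h with 4 h, and of CD with DMSO at 4 and 8 h, were added after values were seen. Families described in full are the 2 with the highest mean of each superfamily (3 for B1 and B2) and the 3 with the smallest adjusted p in each comparison and direction; a few others are named to show a range, and were chosen after their values were seen. The members and gene lists were chosen with earlier results of these data known. The printed sequence comes from GENCODE M21 transcripts, and some genes of the lists are not reported here. Tables and figures used Python 3.11.15, pandas 2.3.3 and matplotlib 3.10.9.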

Additional observations from a re-analysis of the deposited data

How the results depend on the processing

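The call counts at 4 h with CD (31) and at 8 h with CD (26), and the 0 calls in both differences between arms and between CD and DMSO at 4 h, stayed within 1.5 times under every alternative that kept all libraries. At 0 h the 8 families called with CD became 0 on ERCC scaling, 0 with no filter, 13 with a filter at 5, 1 in edgeR, 0 when adjusted over repeat families alone and 1 with the replicate block. Features called higher at 0 h numbered 96 of 17720 on ERCC scaling and 972 of 19613 in edgeR. The 30 at 4 h in DMSO became 0 on ERCC scaling, where 3 of 17720 features were called higher and 1 lower. There the SINE median was -1.06, and 31 SINE families had an unadjusted p under 0.05. The 16 at 8 h in DMSO became 29 as deposited, 26 on ERCC scaling, 7 with no filter and 0 over repeat families alone. Features called lower there numbered 4765 of 17720 as deposited and 3049 on ERCC scaling, against 2404 in the main test. From 4 to 8 h, the 10 in DMSO became 0 as deposited, 0 on ERCC scaling, 3 with no filter, 18 with a filter at 5, 1 in edgeR, 18 over repeat families alone and 1 with the replicate block, and the 24 with CD became 5 as deposited, 0 on ERCC scaling, 8 with no filter, 12 in edgeR and 7 with the replicate block. On ERCC scaling 1 of 17720 features was called higher from 4 to 8 h in DMSO and 10 with CD. The 3 between CD and DMSO at 8 h became 7 as deposited, 0 on ERCC scaling, 1 with no filter, 0 over repeat families alone and 1 with the replicate block. Features called higher in that comparison numbered 1645 of 17720 as deposited and 773 on ERCC scaling, against 1256 in the main test. The cause of these shifts was not tested, beyond more features being tested with no filter.

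With each library left out in turn, counts ran from 0 to 20 at 0 h, 0 to 30 (DMSO) and 30 to 32 (CD) at 4 h, 0 to 21 and 15 to 26 at 8 h, 0 to 19 and 0 to 27 from 4 to 8 h, 0 to 5 between CD and DMSO at 8 h, and 0 to 0 for the rest. Medians over SINE families kept their sign in all of these. ID4_ at 4 h in DMSO turned to -0.15 as deposited, -0.16 on ERCC scaling and -0.90 without DMSO 4 h library 2 (1.12 without library 1); MIR3 at 8 h in DMSO to -0.25 and -0.51; MIRb there to -0.21 and -0.48, and, as the lowest value with a library left out, to -0.063 without DMSO 8 h library 1 (highest 0.43, without DMSO 8 h library 2). The summed ID level at 4 h in DMSO turned to 0.32 (log2 ratio) without DMSO 4 h library 1, and the summed MIR level at 8 h in DMSO to 0.10 without DMSO 8 h library 2 and 0.06 without DMSO 0 h library 1 (lowest -0.12, without DMSO 8 h library 1). Of 2499 values of single families under the alternatives, 1857 kept their direction and their side of the threshold, 633 kept their direction but no longer passed, and 9 changed sign.

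Replicate numbers did not pair the libraries across all groups: their deviations correlated above 0.1 in 4 of 15 pairs of groups (from -0.82 to 0.57). Among these 4 were DMSO 0 h with CD 0 h (0.57) and CD 0 h with CD 4 h (0.45), so a pairing in those comparisons is not excluded. At 15382821 reads or more per library, the Deu families and FAM had the fewest reads, and FAM was left out of the main test by the filter.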
